A study of Homo sapiens with 6 samples.

Results

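The mRNA levels of 35 genes of homologous recombination and the Fanconi pathway were compared between SiHa PR cells and SiHa PR cells that overexpress P4HA3. The genes were listed by symbol, with no threshold on their values, and were matched to the count table by Ensembl identifier. They were chosen with earlier results of these data known. All 35 were found among the 60664 genes listed, and all 35 were among the 15130 genes with enough counts to be tested. SiHa is an established human cervical squamous carcinoma line, and SiHa PR denotes the parental cells from which a highly lymph node metastatic derivative was selected. Poly-A RNA was sequenced from 3 control libraries, named only SiHa PR, and from 3 libraries named SiHa PR P4HA3. Per the study's methods, cDNAs were introduced with lentiviral vectors. The study uses the name Vector cells in other assays, such as qPCR and blots, and for the sequencing speaks of control cells. Whether the sequenced controls carried an empty vector is not stated. P4HA3 encodes an alpha subunit of collagen prolyl 4-hydroxylase. The comparison asks which transcripts differ between these groups of cells. No source states that the 3 libraries of a group came from separate cultures, so the p-values measure the spread between these samples, which may be technical.

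Homologous recombination repairs broken chromosomes by copying the intact sister chromatid. Nucleases trim the broken ends, the BRCA1, PALB2 and BRCA2 proteins help to build a protein filament on the exposed strand, and helicases and nucleases later separate the joined molecules. The Fanconi pathway unhooks crosslinks that tie the strands of DNA together: a ubiquitin ligase, the Fanconi core complex, acts with UBE2T to modify the FANCD2-FANCI pair, which then recruits nucleases and recombination factors. The kinases ATM, ATR, CHEK1 and CHEK2 signal damage to the cell cycle. Most of these genes are used in every dividing cell, chiefly while DNA is being replicated.

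P4HA3 had 86, 62 and 93 counts in the control libraries and 45042, 44775 and 49097 counts in the P4HA3 libraries. The groups were far apart, at 3.41 ± 0.457 and 1954 ± 32.6 CPM (counts per 1000000 counts of the library, scaled by TMM; SD, n = 3), which matched the labels. Its log2 fold change was 9.15 (SE 0.101), and it stayed between 9.06 and 9.27 in the alternatives tried. Total counts ran from 21773488 to 24939948 per library. Over all genes, 1416 (9.36% of those tested) were called higher and 1731 (11.4%) lower at an adjusted p under 0.05 by edgeR's quasi-likelihood test. The deposited growth protocol describes smooth muscle tissue in place of a cell line. Keratin transcripts KRT8 and KRT18 stood at 1817 and 942 CPM in control cells, and CDKN2A at 414 CPM. With P4HA3 these 3 stood at 1703, 716 and 344 CPM. KRT19, EPCAM and CDH1 stood at 0.841, 5.77 and 16.5 CPM in control cells, and at 0.973, 5.48 and 9.66 CPM with P4HA3. The squamous basal markers KRT5 and TP63 were near 0, at 0.158 and 0.392 CPM. Of the smooth muscle markers, DES, MYH11, CNN1 and LMOD1 all lay at or below 0.166 CPM. SMTN stood at 93.3 CPM in control cells and 95.9 CPM with P4HA3, and ACTA2 at 7.78 and 7.98 CPM. TAGLN rose from 8.84 to 17.2 CPM. ACTG2 had 0, 1 and 30 counts in the control libraries and 40, 1 and 44 with P4HA3.

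The libraries also differed in a property that touches these genes. GC content and length were taken from the canonical transcript of each gene in GENCODE 44 on GRCh38. Across all genes, the log2 fold change fell with GC content (Spearman rho = -0.581) and rose with transcript length (rho = 0.27). These are descriptions across genes measured in the same 6 libraries. The repair genes had a median GC content of 41.8% against 49.3% over all genes tested, and a median transcript length of 4592 against 2936 bases. Within groups, too, libraries differed: the correlation of GC content with a library's deviation from its group mean was 0.22, 0.382 and -0.524 in control replicates 1 to 3, and 0.451, -0.48 and 0.0769 in P4HA3 replicates 1 to 3. Control replicate 3 and P4HA3 replicate 2 were therefore the libraries of their groups with the most reads from low-GC genes. For this reason the fold change of each repair gene is given from the plain fit and from a corrected fit. In the corrected fit the smooth trend on GC content and length had been removed from every library. Where a single fold change is given for another gene, it is from the plain fit. The correction removes any part of a group difference that follows these features, so a technical and a biological source of that part cannot be told apart.

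**Figure D1:**
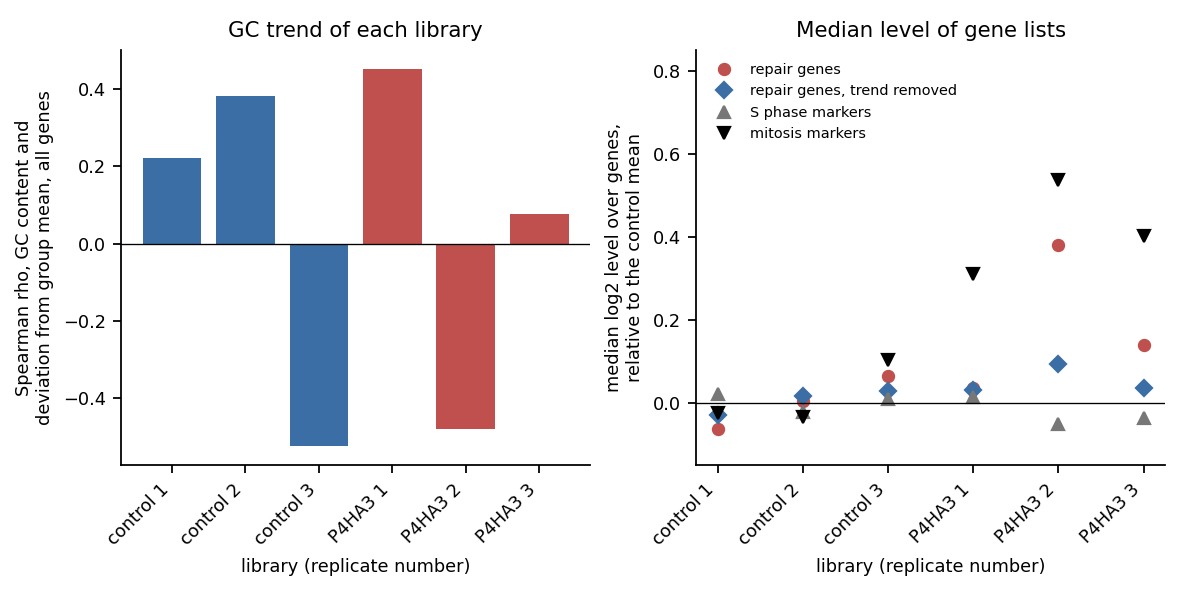
Left, Spearman correlation between GC content and each library's deviation from its group mean over all genes, for the 3 control and 3 P4HA3 libraries. Right, median log2 level relative to the control mean (vertical axis) by library (horizontal axis) for the 35 repair genes, before and after trend removal, and for S phase and mitosis markers. The repair genes' median reached 0.38 in P4HA3 replicate 2 before trend removal and 0.0949 after it.

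Before trend removal, 6 of the 35 genes (17.1%) were called higher in P4HA3-overexpressing cells: RAD51AP1, FANCC, CHEK1, RAD51C, FANCD2 and BARD1. The background over all genes was 9.36%. XRCC3 (2.86% of the list) was called lower, against 11.4% over all genes. The log2 fold change was above 0 in 26 genes and below 0 in 9, with a median of 0.20, while the median over all genes tested was 0.00555. After trend removal, RAD51AP1 and FANCC were called higher (2 genes, 5.71%, background 10.6%), and XRCC3, CHEK2 and FANCL were called lower (3 genes, 8.57%, background 7.94%). The median of the list was then 0.0313, beside 0.0186 over all genes, with 23 genes above 0 and 12 below. RAD51AP1, FANCC and XRCC3 were called in the same direction by both fits. Over all 15130 genes tested, 778 were called higher by both fits and 916 lower by both. The counts changed with single libraries. Without control replicate 1, control replicate 2 or P4HA3 replicate 3 the plain fit called 0 genes higher, while 6, 9 and 9 genes had an unadjusted p under 0.05. Without P4HA3 replicate 1 it called 14 higher and 2 lower, and without P4HA3 replicate 2 it called 2 higher. The plain fit called 0 genes lower without control replicate 2, with 1 at an unadjusted p under 0.05. The share of all genes called in these smaller fits is not given here, so the changes are not shown to be particular to the repair genes.

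**Figure D2:**
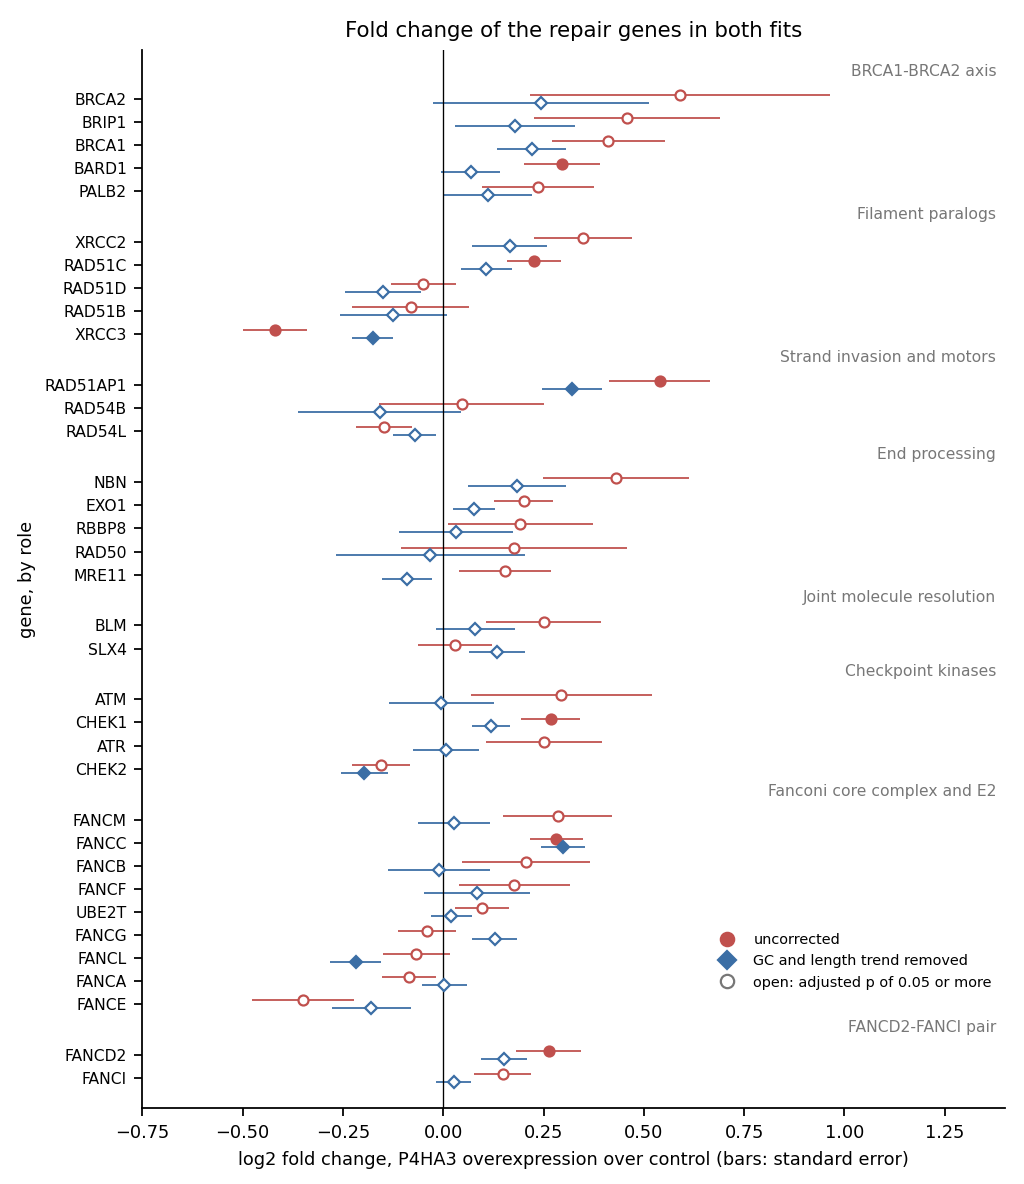
Log2 fold change (horizontal axis) of the 35 repair genes (vertical axis, grouped by role), with standard errors as bars, before (red circles) and after (blue diamonds) removal of the GC and length trend. Filled symbols mark an adjusted p under 0.05; RAD51AP1, FANCC and XRCC3 are filled in both fits.

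The 3 genes called in both fits differ in GC content, so a stretch of each coding sequence is shown with G and C in capitals. Each is the middle 60 bases of the gene's longest coding exon, read 5′ to 3′ on the coding strand of GRCh38. XRCC3 is from chr14:103698879-103698938 (minus strand, exon 10 of 10, 75% GC), RAD51AP1 from chr12:4553035-4553094 (plus strand, exon 7 of 9, 25% GC), and FANCC from chr9:95107138-95107197 (minus strand, exon 14 of 15, 58.3% GC).
XRCC3: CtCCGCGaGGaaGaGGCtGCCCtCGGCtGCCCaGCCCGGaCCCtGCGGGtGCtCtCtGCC
RAD51AP1: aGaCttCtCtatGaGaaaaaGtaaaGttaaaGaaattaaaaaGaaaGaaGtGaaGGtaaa
FANCC: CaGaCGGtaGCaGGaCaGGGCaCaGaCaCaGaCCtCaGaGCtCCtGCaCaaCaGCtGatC
Over whole canonical transcripts the order was the same, with 62.8% GC in XRCC3, the highest of the 35, 50.6% in FANCC and 35.8% in RAD51AP1, the lowest. The fitted trend gave a log2 difference between the groups of -0.242 in XRCC3, 0.214 in RAD51AP1 and -0.0169 in FANCC.

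Along the whole list, genes with a low GC content had the higher fold changes. Of the 26 genes below 45% GC, 24 had a log2 fold change above 0 before trend removal and 19 after it. Of the 9 genes at 45% or more, 2 were above 0 before it and 4 after it. The correlation of log2 fold change with GC content over the 35 genes was -0.697, and -0.227 after trend removal. The correlation with length was 0.465. Trend removal moved 27 genes closer to 0 and 8 farther from it, and the median SE dropped from 0.122 to 0.0823, being smaller in 34 of 35 genes.

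The levels of the 35 genes spanned a ratio of 393 in control cells, measured as CPM per kilobase of canonical transcript. UBE2T, the conjugating enzyme of the Fanconi pathway, was the highest at 69.6 CPM per kilobase, followed by FANCI, part of the pair it modifies, at 25.5 and XRCC3 at 23.9. BRCA2, a central mediator of recombination, was the lowest at 0.177, followed by RAD50, the long arm of the end-binding MRE11 complex, at 0.187, and RAD54B, a DNA translocase, at 0.520. MRE11 and NBN, the other subunits of the complex of RAD50, stood at 2.82 and 3.00. In the later annotation used here, 76.9% of the exon bases of RAD50 are also covered by another gene on the same strand, which had 0 counts, and 66.0% of those of RAD54B are covered by FSBP. The counting rule for shared bases is not stated, so the levels of RAD50 and RAD54B are uncertain. BRCA2 rested on 36, 56 and 55 counts in the control libraries and 38, 119 and 67 in the P4HA3 libraries.

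The order of levels differed little between the groups, with a Spearman rho of 0.988 over the 35 genes. RAD51AP1 moved most, from rank 10 to rank 5.

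**Figure D3:**
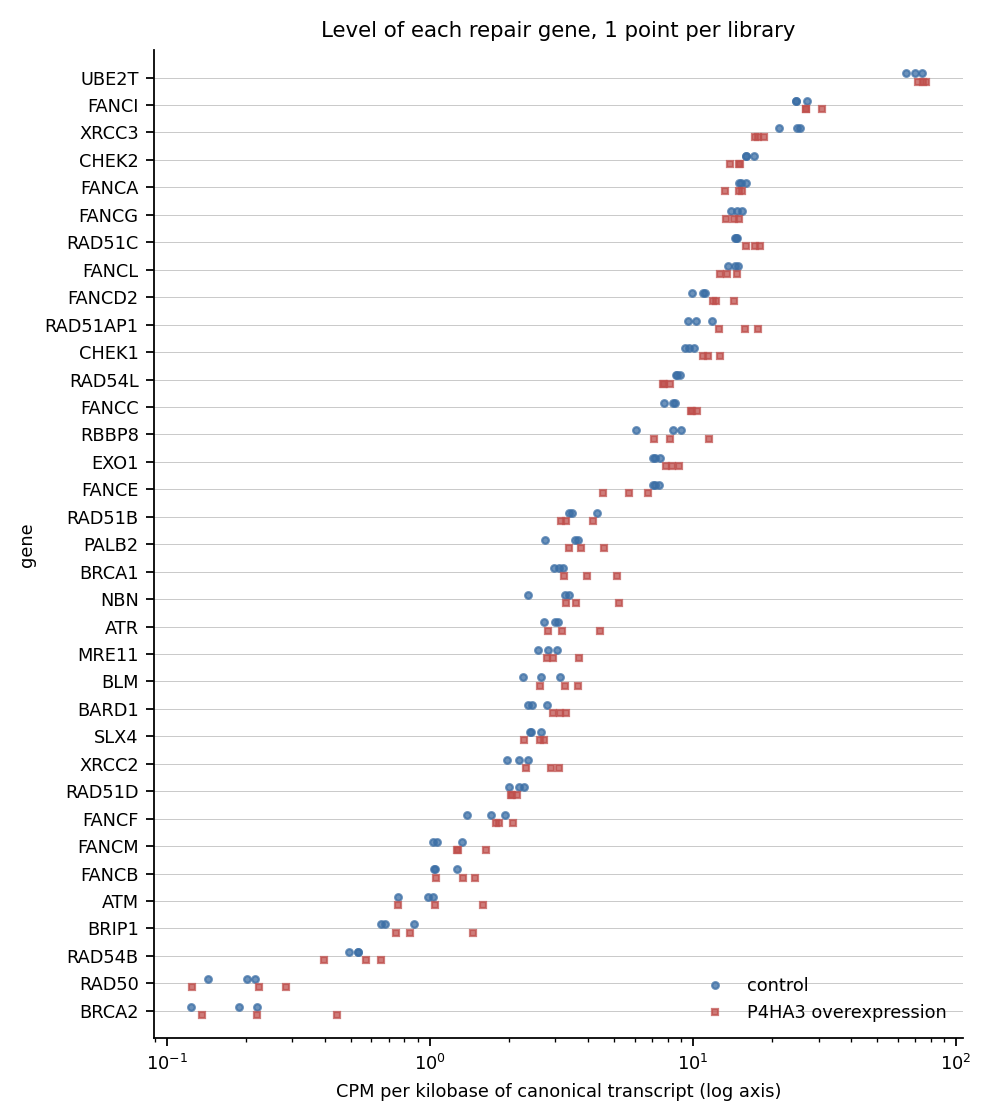
Level of each repair gene in CPM per kilobase of canonical transcript (horizontal log axis), with 1 point per library for the 3 control (circles) and 3 P4HA3 (squares) libraries, and genes (vertical axis) ordered by control level. Levels run from 0.177 for BRCA2 to 69.6 for UBE2T in control cells.

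Among the genes of the BRCA1-BRCA2 axis, BARD1 was called higher before trend removal and no gene was called after it. Over all genes, 9.36% were called higher before trend removal and 10.6% after it. All 5 genes had a log2 fold change above 0 in both fits, with a median of 0.41 before and 0.18 after trend removal. Of the 15130 genes tested, 7665 were above 0 before trend removal and 8140 after it. BARD1 (ENSG00000138376, chr2:214725646-214809683, minus strand), the partner of BRCA1 in its ubiquitin ligase, had 13.0, 13.4 and 15.3 CPM in the control libraries and 16.1, 18.1 and 17.0 CPM with P4HA3. Every P4HA3 library lay above every control library, but the gap between the groups was smaller than the range of the controls. This gave a log2 fold change of 0.30 (SE 0.0947, adjusted p = 0.0493), and of 0.068 after trend removal (adjusted p = 0.556). The call ended with DESeq2 (adjusted p = 0.0618), library sizes only (0.0576) and a minimum of 10 counts in every library (0.0505), and without control replicate 1 or 2 or P4HA3 replicate 2 or 3 the adjusted p lay between 0.103 and 0.190.

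BRCA1 itself, which directs end processing, had 20.9, 22.0 and 22.7 CPM in control cells and 22.9, 36.3 and 28.1 CPM with P4HA3. The P4HA3 libraries lay above the controls, the first of them by a small margin and the second by far the most. Its log2 fold change was 0.41 (SE 0.140, adjusted p = 0.0599) and 0.22 after trend removal (adjusted p = 0.0983), so neither fit called it. DESeq2 gave an adjusted p of 0.0199, and the range over all alternatives was 0.000195 to 0.182. BRCA2 had 1.48, 2.63 and 2.25 CPM in control cells and 1.63, 5.29 and 2.64 CPM with P4HA3. The groups overlapped and P4HA3 replicate 2 stood alone at the top. Its log2 fold change of 0.59 had an SE of 0.373 (adjusted p = 0.264), and it was 0.24 after trend removal (adjusted p = 0.567). Without P4HA3 replicate 2 the plain value was 0.033. PALB2, the bridge between BRCA1 and BRCA2, had a log2 fold change of 0.24, and BRIP1, a helicase bound to BRCA1, had one of 0.46. Their values were 0.11 and 0.18 after trend removal, and their groups overlapped.

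RAD51B, RAD51C, RAD51D, XRCC2 and XRCC3 are paralogs that help to build and stabilise the recombination filament, and they did not move together. XRCC3 was called lower in both fits, RAD51C was called higher in the plain fit, and RAD51B, RAD51D and XRCC2 were not called. XRCC3 (ENSG00000126215, chr14:103697609-103715504, minus strand, 10 exons in the canonical transcript) had 65.5, 63.8 and 54.5 CPM in control cells and 48.0, 44.2 and 45.2 CPM with P4HA3. All P4HA3 libraries lay below all controls, and control replicate 3 was the control nearest to them. XRCC3 fell by 0.42 on the log2 scale (SE 0.0789, adjusted p = 0.00782). After trend removal the values were 59.3, 56.5 and 53.0 CPM against 49.7, 50.8 and 49.1 CPM, still without overlap. The corrected log2 fold change was -0.18 (SE 0.0512, adjusted p = 0.0350). Without control replicate 2 the plain call ended (adjusted p = 0.0597). The corrected call ended with DESeq2 (0.0659), with GC content alone in the correction (0.0520), and without control replicate 1 (0.155), control replicate 2 (0.110) or P4HA3 replicate 3 (0.126).

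Of the exon bases of XRCC3, 76.7% are also covered on the opposite strand by KLC1. The libraries were strand-specific, but the strand setting of the counting is not stated, and without it the reads of both genes cannot be told apart. KLC1 had a log2 fold change of 0.086 (adjusted p = 0.397) and of 0.19 after trend removal (adjusted p = 0.0549).

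RAD51C (ENSG00000108384, chr17:58692573-58735611, plus strand) had 37.5, 37.0 and 37.2 CPM in control cells and 46.1, 43.9 and 40.6 CPM with P4HA3. The controls were nearly level and all P4HA3 libraries lay above them. RAD51C had a log2 fold change of 0.23 (SE 0.0683, adjusted p = 0.0414) and 0.11 after trend removal (adjusted p = 0.265), when the groups overlapped. The plain call ended without any one of the 6 libraries, with an adjusted p between 0.0630 and 0.136. XRCC2 had log2 fold changes of 0.35 and 0.17 in the plain and corrected fits. RAD51D had -0.050 and -0.15, and RAD51B had -0.081 and -0.13.

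RAD51AP1 had the largest rise among the genes called. It encodes a protein that promotes invasion of the intact chromatid by the broken strand. RAD51AP1 (ENSG00000111247, chr12:4538798-4560047, plus strand) had 20.2, 21.7 and 24.9 CPM in control cells and 26.4, 37.4 and 33.3 CPM with P4HA3. All P4HA3 libraries were higher than all controls, although P4HA3 replicate 1 lay close to control replicate 3. The level was 1.45 times that of the controls, with a log2 fold change of 0.54 (SE 0.126, adjusted p = 0.0171). After trend removal the values were 22.7, 23.9 and 25.2 CPM against 26.7, 31.1 and 31.8 CPM, and the log2 fold change was 0.32 (SE 0.0750, adjusted p = 0.0134). Without control replicate 1, control replicate 2 or P4HA3 replicate 3 the adjusted p rose to 0.0774, 0.0991 and 0.0735 in the plain fit and to 0.0624, 0.0566 and 0.0610 in the corrected fit.

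The translocases RAD54L and RAD54B, which remodel joined DNA molecules, were not called. RAD54L had 26.4, 27.5 and 26.8 CPM in control cells and 25.2, 24.0 and 23.8 CPM with P4HA3. These groups did not overlap, but the log2 fold change was only -0.15 (SE 0.0701, adjusted p = 0.145) and -0.071 after trend removal. RAD54B had a log2 fold change of 0.047 and, after trend removal, -0.16.

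No end-processing gene was called in either fit. The count of 0 of 5 in the plain fit by edgeR stood beside 2 genes with an unadjusted p under 0.05 (NBN and EXO1) and 0 called by DESeq2. Over all 15130 genes tested, 9.36% were called higher in the plain fit, and 2922 were higher at an unadjusted p under 0.05. All 5 had a plain log2 fold change above 0, with a median of 0.19, and the median after trend removal was 0.031. NBN, which links the MRE11 complex to ATM, had 10.9, 15.7 and 15.1 CPM in control cells and 15.2, 24.3 and 16.6 CPM with P4HA3. The groups overlapped, with P4HA3 replicate 2 far above the rest. The log2 fold change of NBN was 0.43 (adjusted p = 0.111) and 0.18 after trend removal (adjusted p = 0.323). EXO1, an exonuclease that lengthens the resected end, had 24.8, 24.4 and 25.8 CPM in control cells and 27.1, 30.4 and 28.6 CPM with P4HA3. Its groups did not overlap before or after trend removal, and the log2 fold changes were 0.20 (adjusted p = 0.0778) and 0.076 (adjusted p = 0.334). MRE11, the nuclease of its complex, went from 0.15 to -0.090, and its corrected values lay lower in all P4HA3 libraries than in all controls without a call (adjusted p = 0.345). RBBP8, which starts resection, had log2 fold changes of 0.19 and 0.031, and RAD50 had 0.18 and -0.032.

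BLM, a helicase that dissolves joined molecules, had log2 fold changes of 0.25 and 0.080 in the plain and corrected fits. SLX4, a scaffold for nucleases in both pathways, lay nearest to no change in the plain fit, with 17.7, 19.4 and 17.6 CPM in control cells and 16.7, 19.2 and 19.8 CPM with P4HA3. Its groups overlapped, and its log2 fold change was 0.029 (SE 0.0919, adjusted p = 0.839) and 0.13 after trend removal (adjusted p = 0.212).

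Of the checkpoint kinases, CHEK1 was called higher before trend removal and CHEK2 lower after it, and ATM and ATR were not called. CHEK1 (ENSG00000149554, chr11:125625163-125676255, plus strand) is the effector of ATR at stalled forks. It had 38.5, 39.8 and 41.8 CPM in control cells and 45.2, 52.4 and 47.0 CPM with P4HA3. All P4HA3 libraries lay above all controls, and this held after trend removal. The log2 fold change was 0.27 (SE 0.0740, adjusted p = 0.0307) and 0.12 after trend removal (SE 0.0466, adjusted p = 0.0987). The plain call ended without control replicate 1 (0.134), control replicate 2 (0.118), P4HA3 replicate 2 (0.0805) or P4HA3 replicate 3 (0.0885).

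CHEK2 (ENSG00000183765, chr22:28687743-28742422, minus strand), the effector of ATM, had 29.4, 29.2 and 31.4 CPM in control cells and 25.5, 27.8 and 27.7 CPM with P4HA3. All P4HA3 libraries lay below all controls. The log2 fold change was -0.16 (SE 0.0730, adjusted p = 0.143), and it was -0.20 after trend removal (SE 0.0583, adjusted p = 0.0373). The corrected call ended with DESeq2 (0.0884) and without any single library other than P4HA3 replicate 2, with an adjusted p between 0.0742 and 0.122. ATM had 9.77, 12.7 and 13.3 CPM in control cells and 9.79, 20.5 and 13.6 CPM with P4HA3. The groups overlapped, and only P4HA3 replicate 2 stood out. Its log2 fold change was 0.29 (SE 0.226, adjusted p = 0.356), and it was near 0 (-0.0048) after trend removal. ATR had 0.25 before and 0.0074 after trend removal.

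FANCC was the only gene of the Fanconi core group called higher in both fits. FANCC (ENSG00000158169, chr9:95099054-95426796, minus strand, 15 exons in the canonical transcript), a structural subunit of the core complex, had 38.5, 35.7 and 39.4 CPM in control cells and 47.5, 45.4 and 45.2 CPM with P4HA3. The libraries of each group lay close together, and the groups did not overlap. FANCC rose by 0.28 on the log2 scale (SE 0.0663, adjusted p = 0.0178). Trend removal left it almost as it was, at 0.30 (SE 0.0544, adjusted p = 0.00378), with 38.6, 35.5 and 38.8 CPM against 48.5, 45.2 and 45.3 CPM. Without control replicate 1, control replicate 2 or P4HA3 replicate 3 the plain adjusted p was 0.0738, 0.0886 and 0.0666, while the corrected call held when any one library was left out (adjusted p up to 0.0251).

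FANCL (ENSG00000115392, chr2:58159243-58241410, minus strand), the ubiquitin ligase subunit of the core complex, had 24.6, 22.5 and 24.0 CPM in control cells and 22.4, 24.5 and 21.0 CPM with P4HA3. The groups overlapped. The log2 fold change was -0.068 (SE 0.0833, adjusted p = 0.571). After trend removal the values were 26.3, 24.4 and 24.2 CPM in control cells and 22.1, 22.0 and 20.3 CPM with P4HA3, without overlap. The corrected log2 fold change was -0.22 (SE 0.0640, adjusted p = 0.0359). This call ended with DESeq2 (0.0813) and without control replicate 1 (0.152), control replicate 2 (0.0812), control replicate 3 (0.0652) or P4HA3 replicate 3 (0.142).

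The other subunits and partners of the core complex were not called. FANCE, which bridges the core complex to FANCD2, had 18.2, 19.1 and 18.5 CPM in control cells and 17.4, 11.7 and 14.7 CPM with P4HA3. The controls were tight and all P4HA3 libraries were lower, replicate 2 the most. For FANCE the log2 fold change was -0.35 (SE 0.127, adjusted p = 0.0727) and -0.18 after trend removal (adjusted p = 0.235). FANCM, a translocase that recruits the complex to DNA, had 0.29 and 0.027 in the plain and corrected fits. FANCB had 0.21 and -0.011, FANCF had 0.18 and 0.085, and UBE2T had 0.096 and 0.020. FANCA had -0.086 and 0.0027, and FANCG had -0.040 and 0.13.

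FANCD2 was called higher before trend removal and FANCI was not. FANCD2 (ENSG00000144554, chr3:10026370-10101932, plus strand) had 55.8, 50.5 and 56.7 CPM in control cells and 62.1, 72.8 and 60.9 CPM with P4HA3. All P4HA3 libraries lay above all controls before trend removal and not after it. The log2 fold change was 0.26 (SE 0.0812, adjusted p = 0.0446) and 0.15 after trend removal (SE 0.0570, adjusted p = 0.0889). The plain call held without P4HA3 replicate 1 and ended without any other single library (adjusted p from 0.0552 to 0.178) and with library sizes only (0.0501). FANCI had log2 fold changes of 0.15 and 0.026. BRCA1, CHEK2 and FANCD2 have pseudogene copies elsewhere in the genome, and the treatment of reads with several matches is not stated, so their counts are less certain.

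**Figure D4:**
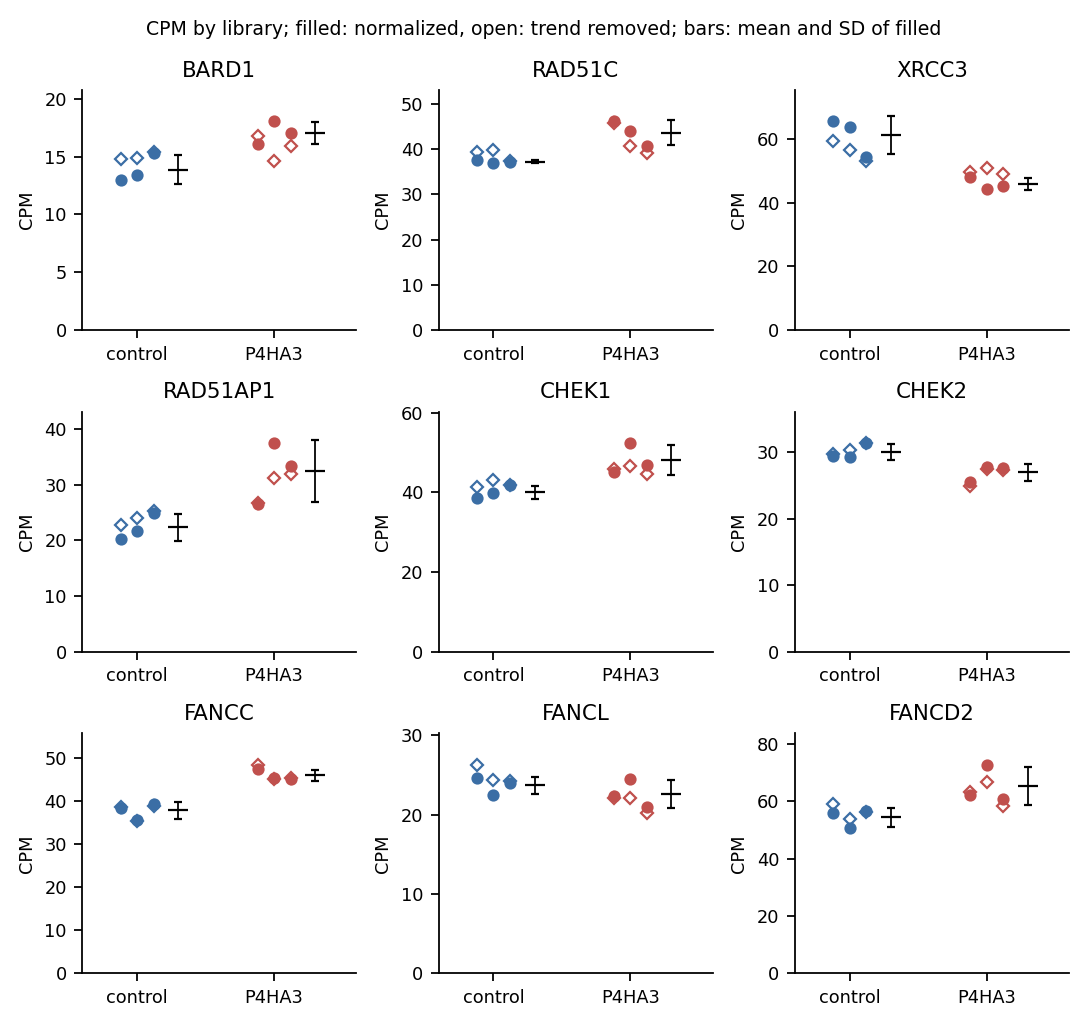
CPM (vertical axes, from 0) of the 9 repair genes called in either fit, by group (horizontal axes). Filled circles are the 3 libraries of each group, open diamonds the same libraries after trend removal, and bars the mean and SD of the filled points. FANCC separates the groups in both versions, while BARD1 and FANCD2 overlap after trend removal.

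Counted by overlap alone, 8 genes (22.9%, against 19.7% of all genes) were higher in every P4HA3 library than in every control library, and 4 genes (11.4%, against 20.4%) were lower. After trend removal there were 4 higher (11.4%, against 21.2%) and 5 lower (14.3%, against 15.6%). P4HA3 replicate 2 was the highest of the 6 libraries in 20 of the 35 genes before trend removal. The median log2 level of the list, relative to the control mean, was -0.0619, 0.00549 and 0.0645 in the control libraries and 0.0356, 0.38 and 0.139 in P4HA3 replicates 1 to 3. After trend removal the P4HA3 values were 0.0313, 0.0949 and 0.0362. With control replicate 3 and P4HA3 replicate 2 both left out, an alternative chosen after the data were seen, the plain fit called 5 genes higher and 1 lower, and the corrected fit called 2 higher and 2 lower. The share of all genes called without these libraries is not given here.

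Upstream sequence is shown for the same 3 genes called in both fits, as the 250 bases before a RefSeq transcription start (GRCh38.p14), 5′ to 3′ on the gene's strand. Capitals mark CCAAT or its reverse complement ATTGG in XRCC3 and RAD51AP1, and E2F-type words in FANCC. The windows are chr14:103715452-103715701 (minus strand) for XRCC3, chr12:4538640-4538889 (plus strand) for RAD51AP1 and chr9:95317710-95317959 (minus strand) for FANCC.
XRCC3: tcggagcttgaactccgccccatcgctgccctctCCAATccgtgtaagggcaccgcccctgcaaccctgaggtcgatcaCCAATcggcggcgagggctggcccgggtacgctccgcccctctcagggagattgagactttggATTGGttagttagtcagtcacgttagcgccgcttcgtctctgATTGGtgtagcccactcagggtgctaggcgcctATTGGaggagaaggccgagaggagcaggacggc
RAD51AP1: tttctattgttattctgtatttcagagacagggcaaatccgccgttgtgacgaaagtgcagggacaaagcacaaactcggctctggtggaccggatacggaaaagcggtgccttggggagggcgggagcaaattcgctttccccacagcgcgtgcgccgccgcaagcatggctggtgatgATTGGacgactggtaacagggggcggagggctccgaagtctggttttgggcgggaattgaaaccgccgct
FANCC: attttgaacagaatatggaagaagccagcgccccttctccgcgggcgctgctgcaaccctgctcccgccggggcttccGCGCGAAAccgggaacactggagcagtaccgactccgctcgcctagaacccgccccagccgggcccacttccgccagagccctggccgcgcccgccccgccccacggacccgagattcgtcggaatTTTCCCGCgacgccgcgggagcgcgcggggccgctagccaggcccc
Of the repair genes, 32 had a window in the RefSeq table, and RAD54B, NBN and FANCI had none. The words searched on both strands, each without regard to the others, were CCAAT for the CCAAT box, TTTGAA for the cell cycle genes homology region and TTTCCCGC, TTTCGCGC, TTTGCCGC or TTTGGCGC for E2F. XRCC3 held 5 CCAAT words, 216, 171, 108, 66 and 33 bases before the start. It alone of the 32 genes (3.12%) held at least 5, as did 0.392% of the 27305 genes in the table. The limit of 5 is the number in XRCC3, a gene shown because it was called, so these shares are a description only. RAD51AP1 held 1, at 70 bases. FANCC held an E2F word at 172 and another at 46 bases, and a TTTGAA left in lower case. The RefSeq table holds another start of FANCC (chr9:95317255-95317504, minus strand), and that window held 0 of the words searched. CCAAT was found in 15 of the 32 genes (46.9%, against 37% of all genes in the RefSeq table), at least 2 of it in 31.2% (against 11.5%), an E2F word in 2 genes (6.25%, against 3.4%) and TTTGAA in 12.5% (against 16.1%). The RefSeq table also holds genes that were not among the 15130 tested. The windows of the repair genes had a median GC content of 63.2%, against 58% over that table. These matches describe the letters only, and no binding was measured.

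Several of these genes start head to head with a neighbour on the other strand. A diverging neighbour within 1000 bases that could be tested was present for 4 of the 9 called genes. None of these neighbours was called in either fit. Over all genes, 9.36% were called higher and 11.4% lower in the plain fit, and 10.6% and 7.94% in the corrected fit. With so few neighbours, the absence of a call says little about them. ZFYVE21 starts 359 bases from XRCC3 and had a log2 fold change of 0.0095 (SE 0.0701, adjusted p = 0.933). After trend removal it was 0.096 (adjusted p = 0.174). C12orf4, 421 bases from RAD51AP1, had 0.28 (SE 0.113, adjusted p = 0.103) and 0.079 after trend removal. HSCB, 219 bases from CHEK2, had -0.084 (adjusted p = 0.499) and -0.036 after trend removal (adjusted p = 0.734). TEX14, 557 bases from RAD51C, had -0.25 with a wide error (SE 0.389) and -0.30 after trend removal.

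Further genes of the same pathways were counted in the same way, against the shares of all genes given above (9.36% higher and 11.4% lower in the plain fit, 10.6% and 7.94% in the corrected fit). Of 27 other homologous recombination factors, 4 were called higher and 1 lower in the plain fit and 2 and 4 in the corrected fit. RMI2, a subunit of the BLM complex, was called lower in both, with log2 fold changes of -0.37 (adjusted p = 0.0117) and -0.32 (adjusted p = 0.00416). Of 14 other Fanconi factors tested, out of 16 listed, 1 was called higher and 2 lower in the plain fit, and 0 in the corrected fit, where 1 gene had an unadjusted p under 0.05. DESeq2 called 2 of them higher and 2 lower without the correction. Of 11 end-joining factors, which rejoin breaks without a template, the plain fit called 0 higher and 1 lower, as did DESeq2, with 1 gene on each side at an unadjusted p under 0.05. None, that is 0 of 11, was called in the corrected fit, with 1 gene at an unadjusted p under 0.05.

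Of 27 checkpoint mediators and chromatin factors, 5 were called higher in the plain fit and 4 in the corrected fit, and 0 were called lower in either, with 1 gene below 0 at an unadjusted p under 0.05 in each and 0 lower by DESeq2. Over all genes the shares called higher were 9.36% and 10.6%. HUS1, part of the clamp that activates ATR, had log2 fold changes of 0.41 and 0.32 (adjusted p = 0.0147 and 0.0159). CLSPN, which carries the signal of ATR to CHEK1, had 0.37 and 0.22 (adjusted p = 0.0374 and 0.0413). CDC25C, a phosphatase that CHEK1 restrains, had 0.23 and 0.21 (adjusted p = 0.0338 and 0.0191).

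Markers of mitosis were higher with P4HA3 in both fits, whereas those of S phase lay on both sides of 0. Of 17 mitosis markers, 14 were called higher in the plain fit and 12 in the corrected fit, with medians of 0.48 and 0.34, against 9.36% and 10.6% of all genes called higher. The marker lists were chosen with earlier results of these data known, so these counts are a description only. CENPE and CENPF, kinetochore proteins, had log2 fold changes of 1.62 and 0.91 (SE 0.450 and 0.282, adjusted p = 0.0313 and 0.0449). After trend removal these were 1.27 and 0.65 (adjusted p = 0.0223 and 0.0416). CENPE rested on 24, 24 and 42 counts in the control libraries and 45, 159 and 74 with P4HA3. The groups of CENPF overlapped in both fits. P4HA3 replicate 2 was the highest library for both genes. KIF23, a motor of cytokinesis, had 0.63 (adjusted p = 0.00162) and 0.48 after trend removal (adjusted p = 8.88e-05). The median of this list relative to the control mean was 0.311, 0.537 and 0.402 in P4HA3 replicates 1 to 3, and between -0.033 and 0.103 in the control libraries. Of 17 S phase markers, 3 were called higher and 5 lower in the plain fit, and 2 higher and 5 lower in the corrected fit. The shares over all genes were 9.36% higher and 11.4% lower, and 10.6% and 7.94%. TYMS, which makes thymidylate, had 0.18 and 0.21 (adjusted p = 0.0447 and 0.00378). MCM5 and MCM7, subunits of the replicative helicase, had -0.32 and -0.28 in the plain fit (adjusted p = 0.0121 and 0.0192). After trend removal they had -0.19 and -0.14 (adjusted p = 0.0169 and 0.0351). GINS2, which activates that helicase, had -0.29 (adjusted p = 0.0110) and -0.28 after trend removal (adjusted p = 0.0020). The median of the S phase list in P4HA3 replicates 1 to 3 was 0.0142, -0.0506 and -0.035. The part of cell cycle composition in the values of the repair genes was not tested, and in bulk RNA a change in the share of cells in a phase and a change of mRNA per cell cannot be told apart.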

How the data were processed

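RNA-seq of 6 libraries was analysed, 3 of SiHa PR cells and 3 of SiHa PR P4HA3 cells, grouped by sample title. The deposited values are raw counts per Ensembl gene. According to the supplementary methods, the authors made strand-specific poly-A libraries, sequenced them as paired ends, aligned the reads to GRCh38 (Ensembl 104) with STAR and counted them with HTSeq. The submitters' processing notes name HISAT2, so the aligner is uncertain, and versions, strand setting and treatment of multiply matching reads are not stated.

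The groups were compared with edgeR 4.0.16 under R 4.3.3 (filterByExpr with a minimum count of 10, TMM, glmQLFit and glmQLFTest, two-sided, Benjamini-Hochberg over all 15130 genes). A gene was called at an adjusted p under 0.05, and every adjusted p is from this test unless another tool is named. A standard error is the unshrunk log2 fold change divided by the root of the F statistic. TMM factors ran from 0.9795 to 1.018, and the common biological coefficient of variation was 7.66% (5.01% after trend removal). Total counts ran from 21773488 to 24939948 per library, so 1 CPM (1 count per 1000000) rests on a little over 20 counts. For trend removal, mgcv 1.9.3 fitted smooth curves on GC content and on log2 length to the difference between a library and the average library, and these curves served as offsets in edgeR; trend-removed CPM carry a prior count of 0.5. GENCODE 44, a later release than that of the authors, gave symbols, positions, GC content and length, and 60463 of 60664 identifiers matched. Adjusted p-values from 3 against 3 libraries rest on the model, since an exact permutation test could not go below 0.1. The scripts were tested on simulated data.

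Named genes are P4HA3, every repair gene called in either fit, the 3 highest and 3 lowest per kilobase, the gene nearest to no change and, of other pathway and cell cycle lists, at most 3 per direction called in both fits. The 16 cell type markers are all given, whatever their calls. Further repair genes are given by their values, and a further member of the other lists is not reported here. Genomic neighbours and overlapping genes fall outside this rule and were added with their values in view. The 35 genes and the lists were chosen with earlier results of these data known. Alternatives were DESeq2 1.42.0, limma-voom (limma 3.58.1), RLE, library sizes only, other filters, a threshold of 0.01, a replicate block, GC content alone and each library left out. No column was left unmapped.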

Additional observations from a re-analysis of the deposited data

How the results depend on the processing

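The count of 6 repair genes called higher and 1 lower was 2 and 3 with the GC and length correction, 13 and 2 with no filter on low counts, and 0 (10 at an unadjusted p under 0.05) and 1 at an adjusted p under 0.01. It stayed within 1.5 times with DESeq2, limma-voom, RLE, library sizes only and a minimum of 10 counts in every library. With single libraries left out it ran from 0 to 14 higher and from 0 to 2 lower. In the corrected fit, the counts of 2 higher and 3 lower ran from 1 to 3 and from 0 to 3, and DESeq2 with the same offset called 0 lower (3 at an unadjusted p under 0.05). The cause of these changes was not tested. The replicate numbers were shared between groups, but the deviations of same-numbered libraries correlated by 0.25, -0.0486 and 0.0297, so the numbers were not taken to pair the samples. As a replicate block they gave 11 higher and 2 lower, and with the correction 4 higher and 3 lower. For the alternatives, the shares of all genes called are not given here. A change in the count of repair genes may thus be a change in the calls over all genes.

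The plain log2 fold changes of the 35 genes gave 560 values over the alternatives: 464 kept their direction and side of the threshold, 39 lost a call, 31 gained one and 26 changed sign, in 10 genes, none of which was called in the plain or the corrected fit. With the correction, and with the correction and the replicate block, the sign turned in RAD54B (-0.16 and -0.17), MRE11 (-0.090 and -0.092), RAD50 (-0.032 and -0.059), ATM (-0.0048 and -0.023), FANCA (0.0027 and 0.00062), FANCB (-0.011 and -0.012) and FANCG (0.13 and 0.13). With 1 library left out, or control replicate 3 and P4HA3 replicate 2 together, values of both signs were found in RAD51B (-0.21 to 0.11), RAD54B (-0.15 to 0.24), RAD50 (-0.085 to 0.44), RBBP8 (-0.032 to 0.33), SLX4 (-0.019 to 0.10), ATM (-0.025 to 0.51) and FANCG (-0.082 to 0.0042). BRCA2, RAD50 and RAD54B rest on 24 to 119 counts per library, and their standard errors (0.373, 0.282 and 0.206) lie above the median of the 35 genes (0.122).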
